A study of Mus musculus with 4 samples.

Results

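The MiT family (microphthalmia/TFE) consists of the 4 transcription factors Mitf, Tfeb, Tfe3 and Tfec. All non-control probes for these genes were taken on 4 mouse arrays, 1 per group, which gave 7 probes out of 55681: 2 each for Mitf, Tfeb and Tfe3 and 1 for Tfec. The 4 genes belong to 28283 genes with a probe well above background on at least 1 array. A literal search for the current symbols found only the 2 Mitf probes. The array files carry the other 3 genes as Tcfeb, Tcfe3 and Tcfec, and these were matched through RefSeq accessions and older symbols. All 7 probes were well above background on all 4 arrays.

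Each array held RNA from donor cells that had spent 16 h in the marrow of a lethally irradiated recipient (9.5 Gy, congenic Ly5.1). The donors were male C57BL/6J (Ly5.2) mice aged 10 weeks, either wild type (WT) or with a conditional knockout of the kinase p38 alpha (cKO). From each genotype, long-term haematopoietic stem cells (LT-HSC, CD34- Flt3- LSK) or multipotent progenitors (MPP, CD34+ Flt3+ LSK) were sorted, stained with the dye CFSE, transplanted and recovered as CFSE-positive cells. LSK denotes marrow cells without lineage markers that carry Sca-1 and Kit. Not given in the sources used here are the Cre driver, the deleted exons and the number of mice pooled. Each of the 4 combinations of genotype and population had 1 array. Differences between arrays therefore carry neither a p-value nor a check by replicates.

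MiT factors bind DNA as dimers, with each other but not with the related factors Myc and Max, through a basic helix-loop-helix leucine zipper, at the E-box CACGTG and close relatives of it. Mitf is best known from melanocytes, mast cells and osteoclasts. Tfeb and Tfe3 drive lysosome and autophagy genes, and are held in the cytoplasm when mTORC1 phosphorylates them at the lysosome. Tfec is known from macrophages. Much of their control acts on the protein, through phosphorylation and nuclear entry, which mRNA levels do not show. The study is known to place Mitf between p38 alpha and Impdh2, an enzyme that commits IMP to guanine nucleotide synthesis. The arrays therefore bear on whether the mRNA of any family member differed with genotype.

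The probes are 60 bases long, and the first 30 bases of 6 of them are printed because different probes for 1 gene gave different answers. Capitals mark the polyadenylation hexamer AATAAA, which was searched for in the whole probe, on the printed strand. It occurred in the dimmer Tfe3 probe, starting at base 21, and in none of the other 6.
Mitf dimmer probe: cagcaatactttctgtatggtccgcagcac
Tfeb brighter probe: tggaggacattttggagaaggaggtacaag
Tfeb dimmer probe: tgctttgaagccacctgttaggcagctgtg
Tfe3 brighter probe: gtttgtgaattttttattgaacccacccac
Tfe3 dimmer probe: tctgtaggtttgactaaaatAATAAAtgct
Tfec probe: acatgatgtgaaagaatcattgaagatcac

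On mouse build mm9 the dimmer Mitf probe lies at chr6:97971229-97971288 on the plus strand and starts at base 4766 of the transcript. The Tfeb probes lie at chr17:47929089-47929148 (base 2055) and chr17:47876857-47876916 (base 1005), plus strand, 52232 bases apart in the genome. They share no transcript: the brighter one is listed for 3 RefSeq transcripts and the dimmer one for 0 RefSeq transcripts and 1 Ensembl transcript. The Tfe3 probes lie at chrX:7352069-7352128 and chrX:7352268-7352327, plus strand, at bases 3014 and 3213 of the same transcripts, only 199 bases apart. The Tfec probe lies at chr6:16783720-16783779 on the minus strand, at base 1380. Exon and UTR annotation of mm9 was not used here.

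In what follows, a signal is the scanner software's background-subtracted intensity of a probe. A difference is on the log2 scale, after the 75th percentile of each array was subtracted. These percentiles were 213.7 and 178.5 for LT-HSC and MPP of WT, and 202 and 174.9 for those of cKO, so a difference can depart slightly from the ratio of 2 signals. The value after ± is the scanner software's error of the difference, which covers neither cells nor sorting nor RNA amplification. A gene is called higher or lower at 1.5-fold (0.58 on the log2 scale), and it is represented by its brighter probe. Brightness is not compared between probes, since probes hybridise with different strength.

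The targeted gene was read first. Mapk14, which encodes p38 alpha, had a signal of 1447 on WT LT-HSC, 951.2 on WT MPP, 912.2 on cKO LT-HSC and 1024 on cKO MPP at its brighter probe. The cKO minus WT difference was -0.58 ± 0.20 in LT-HSC and 0.13 ± 0.20 in MPP, and a second probe gave 0.13 and -0.034. Neither probe is known to lie in the deleted part, so Mapk14 does not check the cKO labels here.

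On each array 62.54% to 70.52% of spots exceeded the background clearly, and 0 were saturated. Of the markers that separate the gates, Cd34 had the direction of the labels (LT-HSC minus MPP -2.99 in WT and -1.02 in cKO), as had the brightest Flt3 probe (-1.80 and -1.16). The other 2 Flt3 probes ran the opposite way (0.22 to 0.88). The markers common to both gates were at 1.96 and 2.11 for Ly6a (Sca-1) and at -0.60 and -0.15 for Kit. Of the long-term stem cell list, 5 of 17 genes were higher and 5 lower in LT-HSC of WT (median 0.06), and 2 of 17 and 2 in cKO (median -0.14). Procr, a stem cell surface receptor, was at 125 on WT LT-HSC and 211.4 to 292.4 on the other arrays. Genes of cells outside the gates were present. The summed scaled signal of 16 B cell markers (1 unit is the 75th percentile of an array) was 207.5 on WT LT-HSC and 126.1 on cKO LT-HSC, against 27.38 and 32.19 on WT and cKO MPP. That of 22 macrophage markers was 162.1 on cKO MPP and 43.45 to 73.99 elsewhere. That of 16 measured stromal and endothelial markers was 46.61 on WT LT-HSC and 12.46 to 23.99 elsewhere. In bulk RNA, fewer cells of a type and less RNA per cell cannot be told apart.

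**Figure D1:**
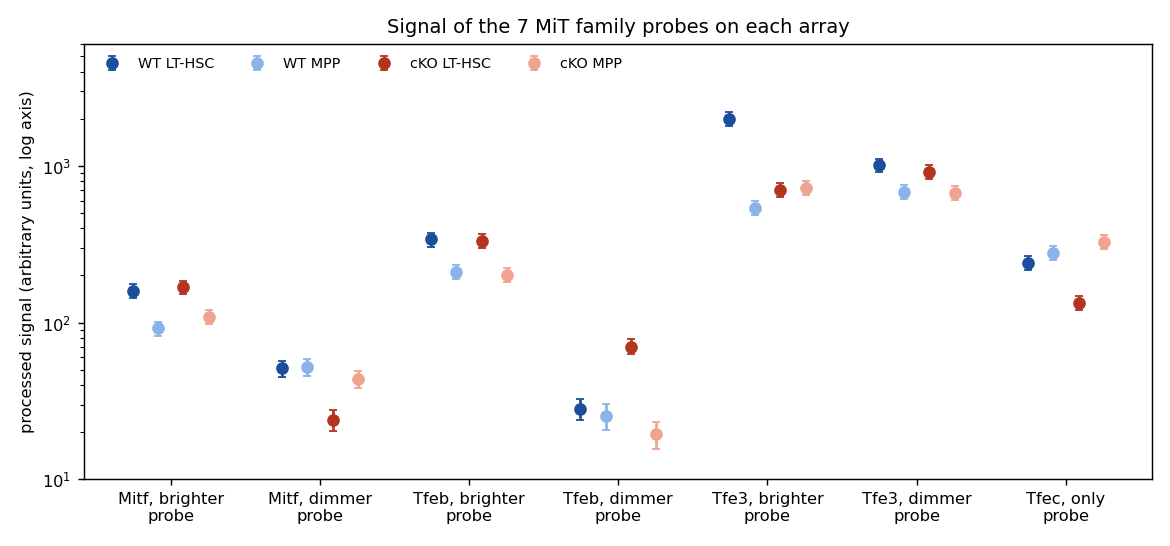
Processed signal (vertical log axis, arbitrary units) of each of the 7 MiT family probes on the 4 arrays. Points are single arrays and bars are 1 scanner software error. The WT LT-HSC array stands above the others at the brighter Tfe3 probe (2002 against 542 to 727.3), and the cKO LT-HSC array stands below them at Tfec (133.5 against 241.3 to 329.4).

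Tfe3, a broadly expressed activator of lysosome genes, had the largest difference between the genotypes among the 4 members' representative probes. Its signal was 2002 on WT LT-HSC, 542 on WT MPP, 703.6 on cKO LT-HSC and 727.3 on cKO MPP. The WT LT-HSC array was high, and the other 3 arrays lay close together: their neighbours in order differed by 0.26 ± 0.20 and 0.20 ± 0.20. cKO LT-HSC was 2.689-fold lower than WT LT-HSC (-1.43 ± 0.20), and 3.969% of all genes had a difference as low. In MPP, the cKO array was higher (0.45 ± 0.20), short of 1.5-fold.

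The second Tfe3 probe, 199 bases further along the same transcripts, did not show this. Its signal was 1010 on WT LT-HSC, 682.9 on WT MPP, 919.5 on cKO LT-HSC and 674.9 on cKO MPP. Both LT-HSC arrays were somewhat above both MPP arrays, and the genotypes lay next to each other in both populations. Here cKO minus WT was -0.054 ± 0.20 for LT-HSC and 0.012 ± 0.20 for MPP. The lower Tfe3 signal of cKO LT-HSC therefore rests on 1 of 2 probes. The stromal and endothelial sum was likewise highest on WT LT-HSC. So were the B cell, T and NK cell, osteoclast, megakaryocyte and long-term stem cell sums. The part of these cell types in the Tfe3 value was not tested.

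Tfec had 1 probe. Its signal was 241.3 on WT LT-HSC, 278.7 on WT MPP, 133.5 on cKO LT-HSC and 329.4 on cKO MPP. The cKO LT-HSC array was low and the cKO MPP array was the highest. The cKO minus WT difference was -0.77 ± 0.21 in LT-HSC, a 1.708-fold lower signal, and 0.27 ± 0.21 in MPP. In LT-HSC, 11.15% of all genes were as low. The macrophage marker sum took the same order over the arrays as Tfec, with 43.45 on cKO LT-HSC, 50.4 on WT LT-HSC, 73.99 on WT MPP and 162.1 on cKO MPP. Gene by gene, 18 of 19 macrophage markers measured on both MPP arrays were higher in cKO, with a median of 1.41. On the LT-HSC arrays, where Tfec was lower in cKO, 6 of 16 were higher and 4 lower, with a median of 0.20. The part of these genes in the Tfec value was not tested.

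Mitf, the factor the study's model turns on, showed no 1.5-fold difference between genotypes at its brighter probe. The signal was 160 on WT LT-HSC, 91.86 on WT MPP, 168.4 on cKO LT-HSC and 109.5 on cKO MPP. Both LT-HSC arrays were above both MPP arrays, and cKO was slightly above WT in both populations. The cKO minus WT difference was 0.16 ± 0.21 in LT-HSC and 0.28 ± 0.21 in MPP. Under other scalings of the arrays the LT-HSC value ran from -0.04 to 0.18, so that its direction was not fixed.

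The dimmer Mitf probe gave another answer in LT-HSC. Its signal was 51.21 on WT LT-HSC, 52.45 on WT MPP, 24.07 on cKO LT-HSC and 43.51 on cKO MPP. The cKO LT-HSC array was low and the other 3 did not differ beyond their error. The cKO minus WT difference was -1.01 ± 0.28 (2.01-fold lower) in LT-HSC and -0.24 ± 0.25 in MPP. The lowest signal well above background on the cKO LT-HSC array was 12.62, so this probe lay near the dim end of the array.

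Tfeb, a factor known for its control of lysosome genes, hardly differed between genotypes at its brighter probe. The signal was 340.2 on WT LT-HSC, 211.8 on WT MPP, 334.1 on cKO LT-HSC and 201.8 on cKO MPP. The LT-HSC arrays were above the MPP arrays, and within each population the genotypes were close. cKO minus WT was 0.056 ± 0.20 in LT-HSC and -0.041 ± 0.21 in MPP. Both directions flipped under some scalings (-0.14 to 0.083 and -0.048 to 0.021). The dimmer Tfeb probe, which matches 1 Ensembl transcript only, was at 28.1 on WT LT-HSC, 25.35 on WT MPP, 70.45 on cKO LT-HSC and 19.39 on cKO MPP. The cKO LT-HSC array stood alone, 2.654-fold above WT LT-HSC (1.41 ± 0.27), while the MPP difference was -0.36 ± 0.40. The lowest signals well above background were 12.48 on WT LT-HSC, 15.42 on WT MPP and 12.76 on cKO MPP. On those arrays this probe lay near the dim end.

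Counted by gene, 0 of 4 members were 1.5-fold higher and 2 of 4 (Tfe3 and Tfec) were lower in cKO than in WT LT-HSC. Over all 24114 genes measured on both arrays, 18.7% were higher and 14.8% lower. Counted by probe, 1 of 7 was higher and 3 of 7 lower, and for Mitf, Tfeb and Tfe3 only 1 of the 2 probes passed 1.5-fold. In MPP, 0 of 4 members and 0 of 7 probes passed 1.5-fold in either direction, where 6.64% of 22384 genes were higher and 7.51% lower. The interquartile range of all genes was -0.27 to 0.44 in LT-HSC and -0.28 to 0.20 in MPP, so the LT-HSC pair was the more widely spread.

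**Figure D2:**
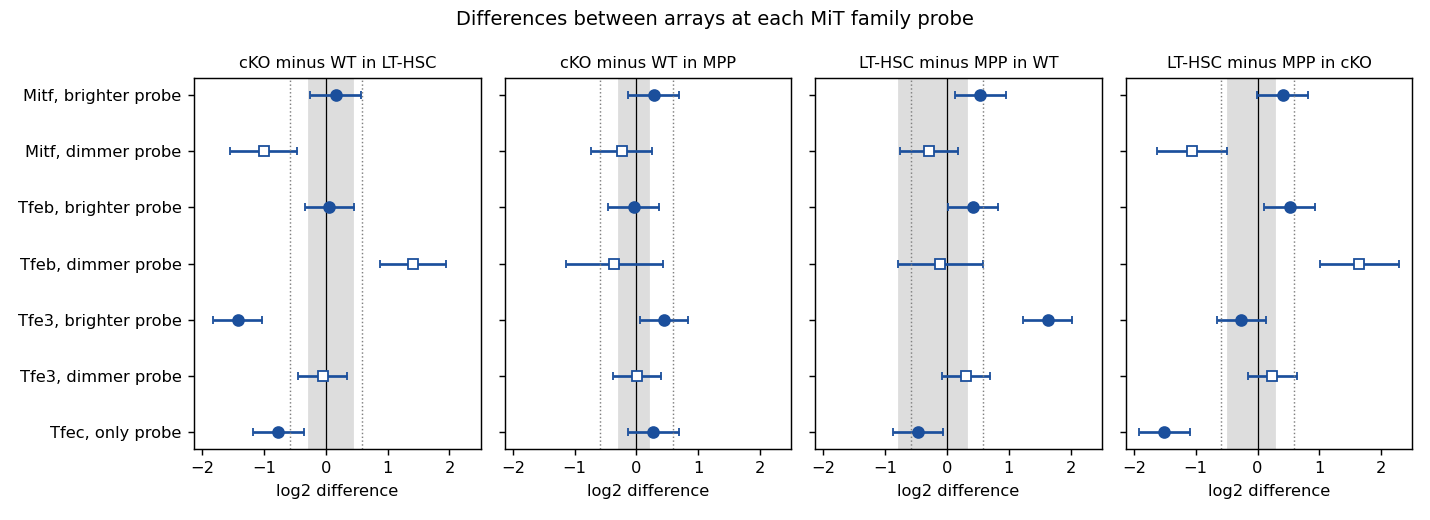
Log2 difference between arrays at each MiT family probe, in the 4 comparisons. Filled circles are the brighter or only probe of a gene and open squares the dimmer probe, bars are 1.96 scanner software errors, the grey band is the interquartile range of all genes and dotted lines mark 1.5-fold. In cKO minus WT in LT-HSC, the 2 probes of Mitf, Tfeb and Tfe3 lie apart (0.16 and -1.01, 0.056 and 1.41, -1.43 and -0.054), and in MPP all 7 probes lie within 1.5-fold.

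The gap between the 2 probes of a gene was set against other genes. For cKO minus WT in LT-HSC it was 1.16 ± 0.35 for Mitf, 1.35 ± 0.34 for Tfeb and 1.37 ± 0.29 for Tfe3. Over 5949 genes with 2 measured probes the median gap was 0.5005, and 26.14% had a gap of 1 or more. Among 574 genes whose probes lie 60 to 300 bases apart in 1 transcript, as in Tfe3, that share was 15.85%. For cKO minus WT in MPP the gaps of Mitf, Tfeb and Tfe3 were 0.52, 0.32 and 0.44, with a median of 0.2685 over all genes and 6.774% at 1 or more. Large gaps between probes were thus common in the LT-HSC pair, and those of the 3 MiT genes lay above the median there.

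**Figure D3:**
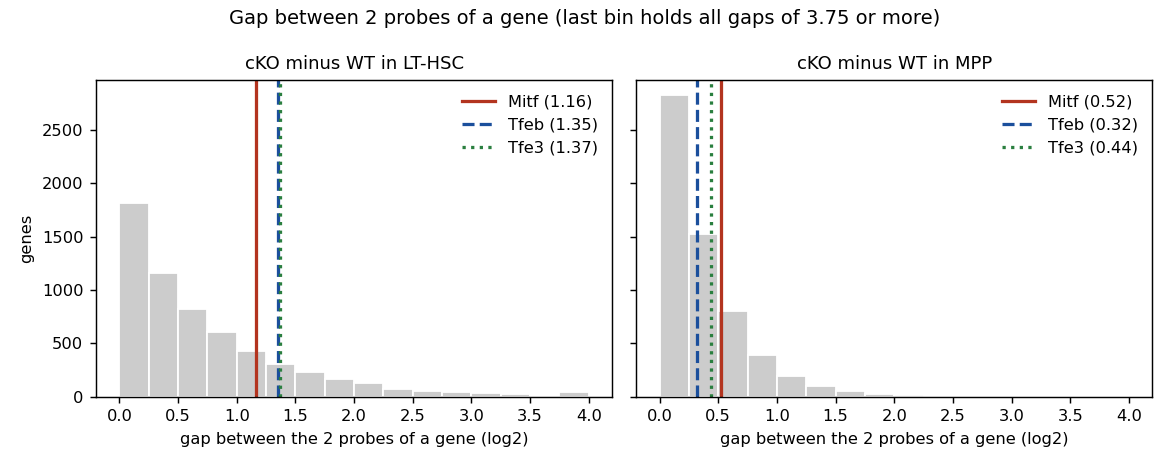
Histogram of the absolute log2 gap between the cKO minus WT differences of the 2 probes of a gene, over 5949 genes, in LT-HSC and in MPP. Vertical lines mark Mitf, Tfeb and Tfe3, at 1.16, 1.35 and 1.37 in LT-HSC and at 0.52, 0.32 and 0.44 in MPP.

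Between populations, Mitf and Tfeb were moderately higher in LT-HSC than in MPP at their brighter probes. For Mitf the LT-HSC minus MPP difference was 0.54 ± 0.21 in WT and 0.41 ± 0.21 in cKO. For Tfeb it was 0.42 ± 0.21 in WT and 0.52 ± 0.21 in cKO. These values are below 1.5-fold, and they kept their direction under the scalings tried (0.25 to 0.69 for Mitf and 0.36 to 0.63 for Tfeb). The dimmer probes did not repeat them: Mitf gave -0.29 ± 0.24 and -1.06 ± 0.29, and Tfeb gave -0.11 ± 0.35 and 1.65 ± 0.33. The marker sums of B cells, T and NK cells, osteoclasts, megakaryocytes and long-term stem cells were also higher on both LT-HSC arrays. Their part in the Mitf and Tfeb values was not tested.

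Tfec ran the other way, lower in LT-HSC than in MPP by -0.47 ± 0.21 in WT and -1.51 ± 0.21 in cKO, the latter 2.85-fold. Of all genes, 1.712% were as low in cKO. Tfe3 was 1.63 ± 0.20 (3.085-fold) higher in LT-HSC than in MPP in WT and -0.26 ± 0.20 in cKO at its brighter probe, against 0.31 ± 0.20 and 0.24 ± 0.20 at its dimmer probe.

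By gene, 1 of 4 members (Tfe3) was higher and 0 were lower in LT-HSC than in MPP of WT, beside 16.3% and 32.6% of all 22387 genes. In cKO, 0 were higher and 1 (Tfec) was lower, beside 13.5% and 19.6% of 23365 genes. By probe the counts were 1 higher and 0 lower of 7 in WT, and 1 higher and 2 lower of 7 in cKO. The genotype and population comparisons share arrays, so a single array that stands apart enters both: WT LT-HSC for Tfe3 and cKO LT-HSC for Tfec.

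An additive limma fit of genotype and population over all 4 arrays, with 1 residual degree of freedom and 25836 genes, called none of the members. The shared cKO minus WT difference was 0.22 ± 0.27 (SE) for Mitf (adjusted p = 0.978), 0.01 ± 0.27 for Tfeb (adjusted p = 0.998), -0.49 ± 0.57 for Tfe3 (adjusted p = 0.978) and -0.25 ± 0.39 for Tfec (adjusted p = 0.98). The shared LT-HSC minus MPP difference was 0.48 ± 0.27 for Mitf (adjusted p = 0.437), 0.47 ± 0.27 for Tfeb (adjusted p = 0.44), 0.69 ± 0.57 for Tfe3 (adjusted p = 0.579) and -0.99 ± 0.39 for Tfec (adjusted p = 0.338). The limma fit called 0 genes for genotype, with 928 at an unadjusted p under 0.05, and 0 for population, with 4098. A response that differs between the populations counts as error in this fit.

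Genes with the profile most like each member over the 4 arrays were found by the Euclidean distance of mean-centred log2 values among 21521 other genes. For Mitf they were Gramd3, Hoxd10 and Hsd17b13 (distances 0.029, 0.032 and 0.038), with 377 genes within 0.2. For Tfeb, 287 genes lay within 0.2, and the only one of the closest 3 with a gene symbol was 1700016K19Rik (0.024). For Tfe3, Ephb6, Zfp410 and Plaur came closest (0.064, 0.073 and 0.086), with 16 genes within 0.2. For Tfec, Ro60, Plcb3 and Trim23 did (0.062, 0.067 and 0.11), with 10 genes within 0.2. With 4 arrays, profiles as flat as those of Mitf and Tfeb have many neighbours.

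The genes around the family were read from 7 lists, whose counts stand beside the shares of all genes given above. The first held 35 genes that act on where MiT proteins sit in the cell and how they are phosphorylated. In cKO against WT LT-HSC, 4 of 34 measured genes were higher and 4 lower, with a median of 0.042, beside a median of 0.1 over all genes. Tsc2 (-1.97 ± 0.21) and Tsc1 (-1.17 ± 0.20), which together restrain mTORC1, were lower in cKO, as was the kinase gene Gsk3a (-1.96 ± 0.21). Mlst8 (-1.04 ± 0.20) was the other lower gene. The 4 higher genes were Rheb (1.09 ± 0.20), Mtor (0.86), Map4k3 (0.83 ± 0.21) and Lamtor1 (0.66). Tsc1 and Tsc2 were high on WT LT-HSC (1191 and 283.8) and lower on the other 3 arrays (495.5 to 571.9 and 68.46 to 91.93), as the brighter Tfe3 probe was. In MPP, 1 of 35 was higher and 1 lower, with a median of -0.16.

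Folliculin (Flcn) and its partners, which let mTORC1 phosphorylate Tfeb and Tfe3 through the Rag GTPases, stayed within 1.5-fold between genotypes at their brightest probes. The cKO minus WT values in LT-HSC and MPP were -0.13 and -0.37 for Flcn, -0.30 and 0.29 for Fnip1, -0.22 and -0.42 for Fnip2, 0.30 and -0.15 for Rragc, and -0.096 and -0.28 for Rragd. A second Rragc probe gave -0.35 and -1.44. Of the other Rag genes, Rraga was at -0.11 and -0.26, and Rragb was the 1 gene of the list called higher in MPP (0.83 ± 0.33), with dim signals of 20.44 on WT MPP and 35.54 on cKO MPP. Between populations of WT, 3 of 34 genes of this list were higher and 16 lower in LT-HSC (median -0.49, beside -0.20 over all genes), with Rheb, the activator of mTORC1, at -1.64 ± 0.20. In cKO, 1 of 35 was higher and 7 lower (median -0.35, beside -0.093).

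Other bHLH-zip factors that bind E-boxes (the Myc, Mxd and Mlx groups with Usf1, Usf2, Tfap4, Srebf1 and Srebf2) had 1 of 16 higher and 2 lower in cKO LT-HSC, with a median of 0.055. Mlx, a partner of glucose-sensing factors, was at -1.79 ± 0.28 and Mycl at -1.39 ± 0.25. In MPP, 0 of 16 were higher and 2 lower (median -0.038). Myc was lower in LT-HSC than in MPP in WT (-1.54 ± 0.20) and cKO (-1.65 ± 0.20), and Mxd1, a Myc antagonist, was higher (1.24 ± 0.20 and 2.12 ± 0.20). In WT 2 of 15 were higher and 7 lower (median -0.41), and in cKO 3 of 16 and 4 (median -0.16).

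Of 18 genes known as MiT feedback or metabolic targets, 16 were measured in both LT-HSC arrays. Of these, 0 were higher and 5 lower in cKO (beside 14.8% of all genes lower), with a median of -0.26. The 5 were Bhlhe40 (-1.48 ± 0.21), the lysosomal calcium channel gene Mcoln1 (-1.07 ± 0.20), Uvrag (-0.73 ± 0.21), Wipi1 (-0.73) and Met (-0.59). The signal of Mcoln1 was 1251 on WT LT-HSC, 329.7 on WT MPP, 564.3 on cKO LT-HSC and 262.5 on cKO MPP, but a second probe gave only -0.32 in LT-HSC. Sqstm1, the autophagy adaptor p62, was at -0.34 in LT-HSC and -0.047 in MPP. Gpnmb, a lysosomal glycoprotein gene induced by MiT factors, was not well above background on any array. In MPP, 0 of 17 were higher and 1 (Hif1a, -0.66 ± 0.21) lower, with a median of -0.15.

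Between populations the same list had 5 of 16 higher and 3 lower in LT-HSC than in MPP of WT (median -0.021), and 4 of 17 and 3 in cKO (median 0.072). The repressor genes Bhlhe40 (2.46 ± 0.24 and 1.45 ± 0.25) and Bhlhe41 (1.75 ± 0.29 and 1.12 ± 0.24) were higher in LT-HSC in both genotypes. Met, a growth factor receptor gene, was lower in LT-HSC of cKO (-1.65 ± 0.27).

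Lysosome genes of the CLEAR network, the group that Tfeb and Tfe3 are best known to activate, did not move one way in LT-HSC. In cKO against WT, 13 of 53 were higher and 9 lower, with a median of 0.11 beside 0.1 over all genes. Ctsf (2.58 ± 0.27) and Scarb2 (2.02 ± 0.24) were the furthest up. In MPP, 7 of 52 were higher and 1 lower, beside 6.64% and 7.51% of all genes (median 0.086, beside -0.06), led by the proton pump subunit Atp6v0a1 (1.06 ± 0.21), the protease Ctsb (1.05 ± 0.20) and Psap (1.00 ± 0.21). On the same pair of arrays 18 of 19 macrophage markers and 12 of 19 neutrophil and granule markers (median 0.75) were higher in cKO, and 0 of either were lower. Their part in the lysosome values was not tested.

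Between LT-HSC and MPP, 11 of 53 lysosome genes were higher and 17 lower in WT (median -0.025), and 7 of 52 and 10 in cKO (median -0.18). The protease genes Ctsh (3.52 ± 0.22 and 2.52 ± 0.21) and Ctss (2.38 ± 0.20 and 2.01 ± 0.20) were higher in LT-HSC in both genotypes. Ctss is also expressed in B cells, whose markers were high on the same arrays. The part of B cells or of other cell types in the Ctss value was not tested. Ctsk, an osteoclast protease and Mitf target, was not well above background on any array, while Acp5, another osteoclast gene, was 2.28 ± 0.21 and 2.26 ± 0.21 higher in LT-HSC. The osteoclast markers did not all go that way. In WT, 3 of 11 were higher and 2 lower in LT-HSC (median 0.50), with Mmp9 at -1.97 ± 0.38. In cKO, 4 of 11 were higher and 1 lower (median 0.35). Over all genes, 16.3% were higher and 32.6% lower in WT, and 13.5% and 19.6% in cKO.

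Autophagy genes had 12 of 38 higher and 9 lower in cKO LT-HSC (median 0.083), beside 18.7% and 14.8% of all genes and a median of 0.1, with Map1lc3a (2.68 ± 0.24) and Atg2a (2.35 ± 0.23) up and Vps33a (-3.39 ± 0.25) down. In MPP, 2 of 38 were higher and 3 lower (median -0.10). Atg2a was at 43.59 on WT LT-HSC and 210.5 to 483.7 elsewhere, and Vps33a at 323.7 on WT LT-HSC and 29.18 to 54.09 elsewhere, so here too the WT LT-HSC array stood apart. Between populations 7 of 38 were higher and 15 lower in LT-HSC of WT (median -0.14), and 5 of 39 and 8 in cKO (median 0.0059).

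**Figure D4:**
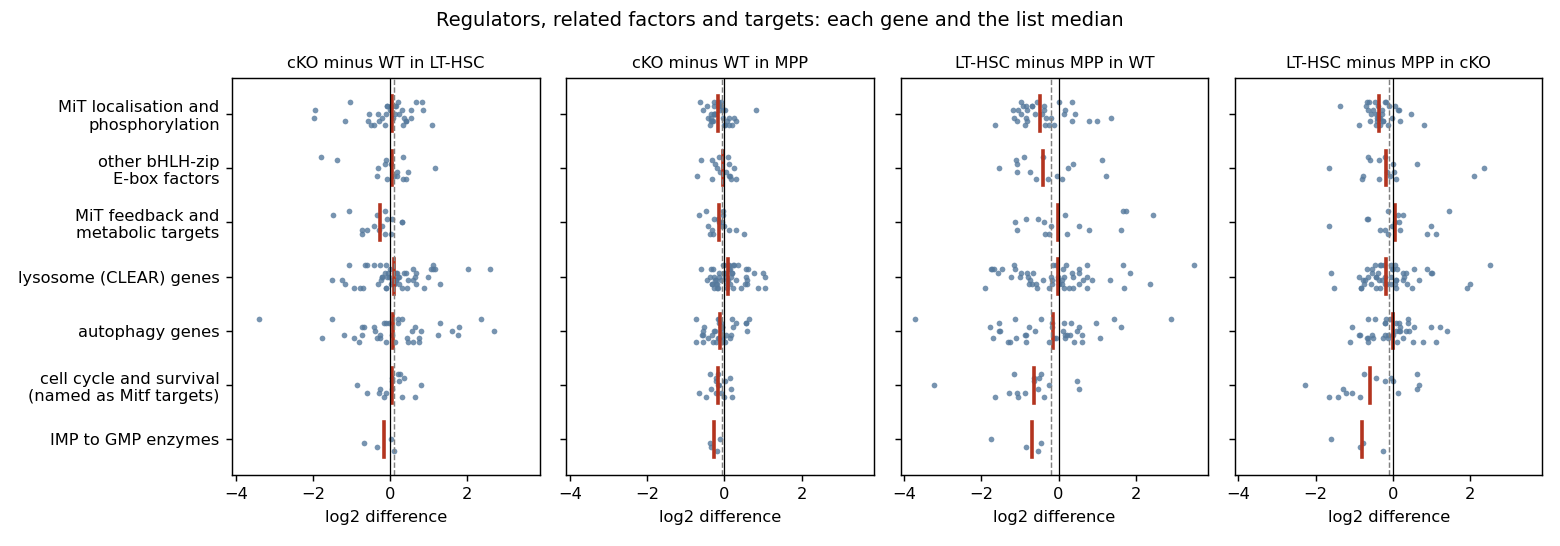
Log2 difference of each measured gene (points) and the median (red bar) of the 7 lists of MiT regulators, related factors and targets, in the 4 comparisons. The dashed line is the median of all genes, and list medians lie between -0.26 and 0.11 in cKO minus WT in LT-HSC and between -0.27 and 0.086 in MPP.

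Cell cycle and survival genes named as Mitf targets had 2 of 16 higher and 2 lower in cKO LT-HSC (median 0.044), and 0 of 16 higher and 1 lower in MPP (median -0.16). Bcl2, an inhibitor of cell death, was at 0.19 ± 0.20 in LT-HSC and 0.15 ± 0.20 in MPP. The kinase gene Cdk2 was at -0.16 ± 0.20 and 0.21 ± 0.20. Between populations, 0 of 16 were higher and 9 lower in LT-HSC of WT (median -0.63), beside 16.3% and 32.6% of all genes and a median of -0.20. In cKO, 3 of 16 were higher and 8 lower (median -0.58), beside 13.5% and 19.6% and a median of -0.093. The mitotic cyclin gene Ccnb1 was at -3.24 ± 0.21 and -2.27 ± 0.21 at its brightest probe, and its other 2 probes gave -1.49 and -1.67, and -1.94 and -0.90.

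Impdh2, the enzyme gene placed downstream of Mitf, had a signal of 3067 on WT LT-HSC, 4577 on WT MPP, 2296 on cKO LT-HSC and 3549 on cKO MPP. It was at -0.34 ± 0.20 (cKO minus WT) in both populations, short of 1.5-fold, and its second probe gave -0.32 and -0.19. Impdh2 was lower in LT-HSC than in MPP (-0.84 ± 0.20 in each genotype). Set beside Mitf, the 2 Mitf probes differed: the brighter one had the opposite sign to Impdh2 in all 4 comparisons (0.16, 0.28, 0.54 and 0.41, of which the first changed sign under other scalings), and the dimmer one had the same sign in all 4 (-1.01, -0.24, -0.29 and -1.06). At the dimmer probe, -0.24 ± 0.25 and -0.29 ± 0.24 were about as large as their error. The 4 comparisons share arrays, so their signs are not 4 separate observations. A link between Mitf and Impdh2 was not tested. Impdh1, the related isozyme gene, was at 0.10 in LT-HSC and -0.20 in MPP. Of the 4 genes from IMP to GMP, 0 were higher and 1 (Gmps, -0.69 ± 0.20) lower in cKO LT-HSC, with the other 2 Gmps probes at 1.77 and 1.42. The median was -0.15 in LT-HSC, and in MPP 0 passed 1.5-fold (median -0.27). Between populations, 0 were higher and 2 lower in LT-HSC of WT (median -0.69), and 0 and 3 in cKO (median -0.80).

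Promoters were read from RefSeq (GRCm38.p6, 250 bases before to 50 bases after a start site) for the letters CACGTG, the same on both strands. Of 32851 promoters, 7.15% held them. None of the 4 MiT members had a match in this window. Among genes with a promoter sequence here, 7 of 17 feedback and metabolic targets (41.2%) and 18 of 41 lysosome genes (43.9%) did, beside 8.09% of 27025 genes. The 41 lysosome genes are those matched out of 55, and the share speaks for them alone. Both lists were chosen as known targets of factors that bind these letters. Their high shares can follow from that choice and are not a separate result. The share with CACGTG was 33.3% in the other bHLH-zip factors (5 of 15) and 25% in the localisation and phosphorylation list (7 of 28). It was 29.4% in the cell cycle and survival list (5 of 17) and 15.6% in the autophagy list (5 of 32). Flcn, Fnip2, Rragd and Sqstm1 were not among the genes with a match. The longer form TCACGTGA, which contains the first, was in 9 of the 41, beside 1.12% of all genes and 0.974% of promoters. TCATGTG, searched on both strands, was in 7 of the 41, beside 4.31% of genes and 3.77% of promoters. Impdh2 was the only 1 of the 4 IMP to GMP genes with CACGTG. The stretches are printed for Impdh2 and for 3 feedback targets described above, because MiT factors are known to bind these letters, which are in capitals. A match is a description of the sequence and not evidence of binding.
Impdh2, chr9:108560314-108560343, plus strand: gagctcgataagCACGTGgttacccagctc
Mcoln1, chr8:3500436-3500465, plus strand: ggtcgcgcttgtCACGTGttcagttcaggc
Mcoln1, chr8:3500462-3500491, plus strand: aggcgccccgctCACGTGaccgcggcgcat
Fnip1, chr11:54438092-54438121, plus strand: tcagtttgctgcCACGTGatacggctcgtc
Rragc, chr4:123917309-123917338, plus strand: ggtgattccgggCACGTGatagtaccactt

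The match starts 110 bases before the start site in Impdh2, 71 and 45 in Mcoln1, 75 in Fnip1 and 112 in Rragc.

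Of the cell types in which Mitf is best known, some markers were measured and others were not. Of 22 mast cell and basophil markers, 15 were measured, with a summed scaled signal of 48.91 on WT LT-HSC, 73.91 on WT MPP, 57.53 on cKO LT-HSC and 67.34 on cKO MPP. Fcer1a, Tph1, Hpgds, Mcpt2, Tpsab1 and Cd200r3 were not well above background on any array. The tryptase gene Tpsb2 (148.6 to 226.7), the basophil protease gene Mcpt8 (20.68 to 73.16) and the histamine-forming enzyme gene Hdc (196.7 to 388.9) were so on all 4. Cpa3, a mast cell protease gene also present in progenitors, was 2.96 ± 0.21 higher in cKO than in WT LT-HSC. Its signal was 69.15 on WT LT-HSC and 509 to 664.7 elsewhere, so here too the WT LT-HSC array stood apart. Of 11 mast cell and basophil markers measured on both LT-HSC arrays, 2 were higher and 0 lower in cKO (median 0.22). Over all genes, 18.7% were higher and 14.8% lower (median 0.1). Kit was at -0.016 ± 0.20 in LT-HSC and -0.46 ± 0.20 in MPP. Of 16 osteoclast markers, 13 were measured (sums 41.23, 26.68, 38.75 and 28.26 in the same order), and Ctsk, Ocstamp and Calcr were not well above background on any array. Nfatc1 (741 to 2454), Itgb3 (562.1 to 1200) and Acp5 (137.7 to 1043) were well above background on all 4 at their brightest probes. In cKO against WT LT-HSC, 1 of 11 osteoclast markers was higher and 1 lower (median 0.075). These were Mmp9 (3.94 ± 0.37, with a dim signal of 14.24 on WT LT-HSC) and Nfatc1 (-0.97 ± 0.20). Of 16 melanocyte markers, 11 were measured, with sums of 4.877 to 8.058. Tyrp1, Oca2, Gpr143, Mc1r and Mlph were not well above background on any array. Tyr (95.54 to 152.1), Trpm1 (80.23 to 125) and Rab27a (317.9 to 750.6) were so on all 4 at their brightest probes. Another Tyr probe (5.959 to 7.426) and another Trpm1 probe (2.655 to 4.897) were so on 0 arrays. In cKO against WT LT-HSC, 3 of 7 melanocyte markers were higher and 1 (Pmel, -1.39 ± 0.22) lower, with a median of 0.32. Over all genes, 18.7% were higher and 14.8% lower. Csf1r, the macrophage growth factor receptor gene, was at -0.096 and 0.038 (cKO minus WT in LT-HSC and MPP) at its brightest probe, while its other 2 probes gave 0.47 and 1.43, and 0.97 and 0.62.

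The other marker sums, given for LT-HSC and MPP of WT and then of cKO, were 87.95, 37.29, 71.99 and 36.66 for T and NK cells and 33.61, 24.94, 30.49 and 24.96 for megakaryocytes. Those of the erythroid list ran from 798.9 to 905.7, of the neutrophil and granule list from 479.8 to 605.7, of the long-term stem cell list from 62.66 to 78.83, and of the multipotent progenitor list from 65.01 on WT LT-HSC to 111.9 on WT MPP. A sum can hide single genes. In LT-HSC against MPP of WT, 6 of 11 erythroid markers were higher and 0 lower (median 0.83). In cKO, 3 of 11 were higher and 1 lower (median 0.018). Of 19 neutrophil and granule markers, 11 were higher and 5 lower in WT (median 1.31), and 13 and 4 in cKO (median 0.86). The T and NK cell, megakaryocyte, osteoclast and long-term stem cell sums, like those of B cells, were higher on both LT-HSC arrays. On these arrays Mitf and Tfeb were higher at their brighter probes. The part of these cell types in the Mitf and Tfeb values was not tested.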

How the data were processed

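RNA of 4 groups, 1 sample each, was hybridised to 1-colour (Cy3) Agilent arrays (design 028005, probes on mm9). Per the file headers, the deposited intensity values came from Agilent Feature Extraction 10.7.3.1, background-subtracted within each array; the submitters' processing notes name version 9.5.3. Flags of the scanner software, deposited as a score of 0 or 1 per spot, mark outliers, saturation and spots well above background. The authors' series table holds a ratio, each probe's signal relative to its own level over the arrays; its column medians were 91.92, 107.3, 97.51 and 102.4 (LT-HSC and MPP of WT, then of cKO), the rule behind its scaling is unknown, and it served as an alternative.

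Each array had 59305 spots, of which 137 to 151 were left out as outliers. Signals were put on the log2 scale, the 75th percentile over non-control probes was subtracted, and spots of a probe were averaged. Names were matched to a RefSeq table (GRCm38.p6): 26857 probes by accession, 3757 by symbol and 623 by an older symbol, while 24444 kept the file's name. The probe with the highest mean stood for its gene, chosen from those well above background on 1 array or more. Pairs of arrays were compared by differences of 1.5-fold or more, without p-values. limma 3.58.1 (R 4.3.3) fitted genotype and population over genes that 2 or more arrays measured well above background, with Benjamini-Hochberg adjustment at 0.05, and was tested on simulated data. Python 3.11.15 with pandas 2.3.3 and numpy 2.4.6 was used for the rest.

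The number of arrays limits the precision, and the labels do not say how many animals stand behind an array. The text names all member probes, a set of related genes, up to 3 genes of largest difference per list and comparison, and the 3 nearest profiles per member. Wipi1, Rraga, Mtor, Lamtor1, Tpsb2, Mcpt8 and the sorting markers were added after their values were seen. So were Met, Rheb, Mlst8 and Map4k3 between genotypes. The members and the 19 lists (12 of them cell type markers) were chosen with earlier results of these data known. Alternatives were other background corrections, scalings, probe summaries and filters. The sequence and position of 1 probe and the value of 1 lysosome gene are not reported here.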

Additional observations from a re-analysis of the deposited data

Results flagged for a closer look

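At the brighter Tfe3 probe the knockout array was lower than wild type in LT-HSC (-1.43) and higher in MPP (0.45), a difference between the populations of -1.88 ± 0.29 (scanner software error). The dimmer Tfe3 probe gave -0.066 ± 0.29. At the Tfec probe the knockout array was lower in LT-HSC (-0.77) and higher in MPP (0.27), a difference of -1.04 ± 0.29. With 1 array per group, neither difference between the populations was tested.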

How the results depend on the processing

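The differences of the 4 members were recomputed under 7 other settings and with the dimmer probe of each gene, the latter chosen after seeing the data. Of these member values 99 moved by less than the error of the difference and 25 moved by more. Some of the 99 could not move. Without the filter on dim probes the member probes stay the same, and averaging leaves Tfec with its 1 probe. With the authors' series table the medians of all genes were 0.10, -0.058, -0.19 and -0.094, close to the main values of 0.1, -0.06, -0.20 and -0.093. No called value changed sign, but calls at 1.5-fold were gained and lost. Normexp with quantile normalization, which changes background correction and scaling together, moved Tfec in LT-HSC minus MPP of cKO to -1.20 and put it at -0.58, at the 1.5-fold line, in cKO minus WT in LT-HSC. Scaling alone moved Tfe3 in LT-HSC minus MPP of WT to 1.88 (quantile normalization). It took Mitf in LT-HSC minus MPP of WT past 1.5-fold (0.69 with the percentile over probes measured on all arrays, 0.64 with the array median) and Tfeb in that of cKO (0.63 with the former). The other moves came from the probes used. When the probes of a gene were averaged, Mitf became -0.43 and 0.021 (cKO minus WT in LT-HSC and MPP) and 0.12 and -0.32 (LT-HSC minus MPP in WT and cKO), Tfe3 became -0.74, 0.23, 0.97 and -0.0082 in that order, and Tfeb became 0.73 in LT-HSC and 0.16 and 1.09 between populations, which adds 2 Tfeb calls. With the dimmer probe, the values in that order were -1.01, -0.24, -0.29 and -1.06 for Mitf, 1.41, -0.36, -0.11 and 1.65 for Tfeb, and -0.054, 0.012, 0.31 and 0.24 for Tfe3, which adds 2 calls each for Mitf and Tfeb and ends both Tfe3 calls. Of the medians of the gene lists, 476 stayed and 56 moved. For population, limma called 59 genes with normexp, 101 with a percentile taken over probes that all arrays measured well above background, 154 with probes averaged per gene and 58 among genes measured well above background on all arrays, against 0, and 0 under the other 4. For genotype it called 0 under all 8. The array median moved the median of all genes in cKO minus WT in LT-HSC from 0.1 to -0.096. No paired analysis was possible because each group had 1 array and the labels carry no replicate numbers.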
